A study of Mus musculus with 16 samples.

Results

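The comparison set CCR8+ against CCR8- regulatory T cells (Tregs) with the tissue held as a factor, so that it asked which transcripts went with CCR8 in the injured heart and in the lymph node alike. All 16 libraries of the series took part, 8 from CCR8+ and 8 from CCR8- cells. CCR8+ and CCR8- Tregs were taken both from infarcted hearts and from mediastinal lymph nodes (MLN), with 4 libraries for each of the 4 groups. All came from mice of 8 weeks with the Foxp3-GFP genotype, in which green fluorescent protein marks cells that express Foxp3, taken 7 days after myocardial infarction (MI). No group from uninjured mice was analysed here, so every difference below is one between cells of infarcted animals. About 100 cells, sorted on magnetic columns and then by flow cytometry, went into each library. The labels do not say whether each library had its own donor animal, so the p-values measure the spread between libraries. For each gene the heart difference (CCR8+ minus CCR8-) and the MLN difference were averaged with equal weight, and 322 of 10369 tested genes passed the test on that average with the same sign in both tissues.

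Tregs are T cells that carry the transcription factor Foxp3 and restrain other immune cells. CCR8 is a chemokine receptor that marks activated Tregs of tissues and tumours, and CCL1 is one of its ligands. T cells that are stimulated switch on Myc, which drives ribosome assembly, polyamine and nucleotide synthesis. In resting T cells the transcription factor Klf2 maintains S1pr1, the receptor that lets them leave lymph nodes, and both are lost when the cells are stimulated.

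Levels are given as log2(FPKM + 1), where FPKM is fragments per transcript length and sequencing depth. Differences are differences of these log2 values, ± the standard error of the limma fit. A fold is the ratio of FPKM + 1, so it understates the change of genes with low values. A gene counts as called where its p, two-sided and adjusted after Benjamini and Hochberg over all tested genes, was under 0.05. Between 10789 and 12704 genes were above 0 in the heart libraries and between 10691 and 11565 in those of the MLN. Read numbers are not known, so no counting error is given. General T cell genes, among them Cd3e and Cd4, averaged 8.06 ± 0.34 in CCR8+ and 8.30 ± 0.47 in CCR8- libraries of the heart, and 8.58 ± 0.19 in CCR8+ and 8.39 ± 0.19 in CCR8- libraries of the MLN (SD, n = 4). Foxp3 itself was above 0 in all 16, between 4.32 and 6.46. The RNA is that of a sorted population, in which fewer cells of a type and less RNA per cell cannot be told apart.

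Of the 10369 genes, 188 (1.81%) were called higher and 153 (1.48%) lower in CCR8+ cells. The heart and MLN differences had the same sign for 94.4% of these 341 genes, and for 53.2% of all tested genes. The 341 were called on the mean of the 2 differences, in which opposite signs cancel. Their high share therefore follows in large part from the selection. That left 181 genes higher (1.75% of those tested) and 141 lower (1.36%) with the same sign in both tissues. The sign rule sets no minimum size, so these include genes with almost no heart difference. Examples are S100a6 (-0.005 in heart, -4.53 in MLN) and Myc (0.08 in heart, 4.24 in MLN). The average difference was 2-fold or more for 123 of the 181 and for 81 of the 141. By itself the heart comparison called 38 genes (0.366%) and the MLN comparison 429 (4.14%). Of the 322 genes, 28 were also called in heart, 203 in MLN and 10 in both, while 101 were called in neither tissue and only through the average. The heart difference was the larger one for 76 of the 322. The size of the CCR8 difference was called different between the tissues for 42 of all tested genes (0.405%) and for 4 of the 322. A stricter question is whether each tissue by itself shows the difference. Taking the larger of the 2 tissue p-values per gene, 0 genes passed the adjustment in limma (smallest adjusted p = 0.302), and 205 had an unadjusted value under 0.05, 128 higher and 77 lower.

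**Figure D1:**
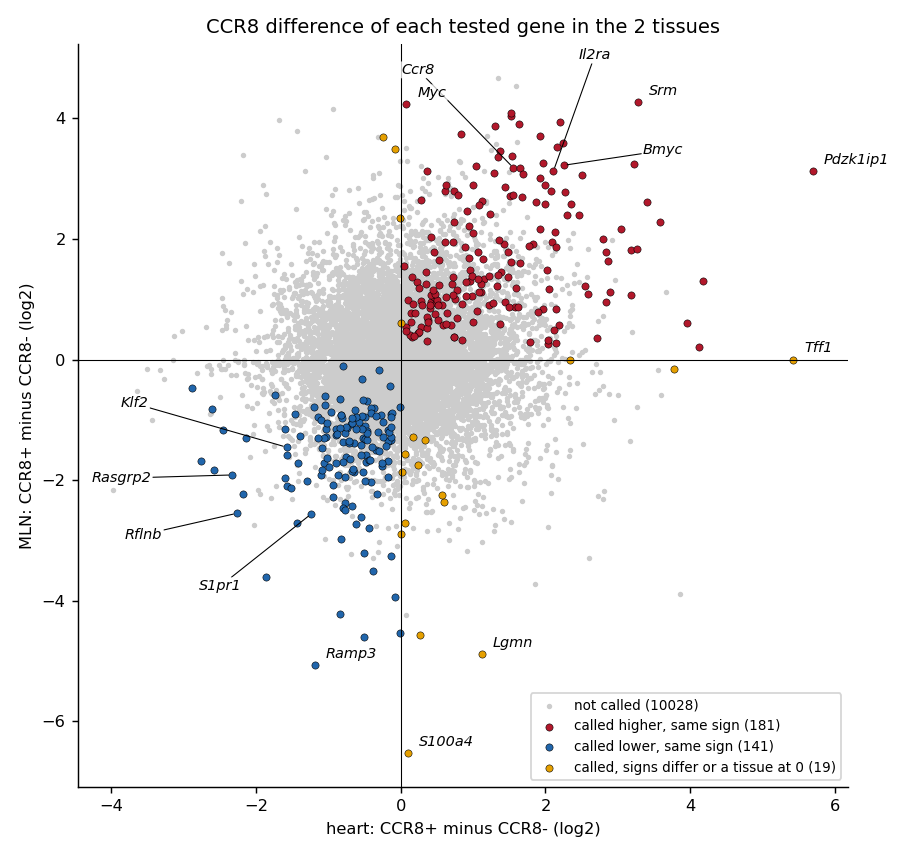
Each point is a tested gene, with its heart difference (CCR8+ minus CCR8-, log2) on the x axis and its MLN difference on the y axis. Red points are the 181 genes called higher and blue points the 141 called lower with the same sign in both tissues, yellow points the 19 called with unequal signs or with a tissue at 0, and grey points the 10028 not called. Srm, Pdzk1ip1, Bmyc, Ccr8 and Il2ra lie far into the upper right, and Rflnb, Rasgrp2, Klf2 and S1pr1 in the lower left.

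A comparison without a model asks that all 4 CCR8+ libraries lie on one side of all 4 CCR8- libraries in heart, and on the same side in MLN. This held for 46 genes higher (0.444% of those tested) and 57 lower (0.55%), of which 45 and 50 were called. Some genes named below were picked from these called genes by the size of their smaller tissue difference. Among them are Srm, Pdzk1ip1, Bmyc, Irf8, Rflnb, Rasgrp2, Klf2, Itgb1 and S1pr1. For genes picked this way, the lack of overlap and the shared sign follow from the selection and are not separate findings. Among the 181 genes higher, the highest of the 4 group means was that of MLN CCR8+ Tregs for 140 and that of heart CCR8+ Tregs for 41. Among the 141 lower, the lowest group mean was in MLN CCR8+ Tregs for 120 and in heart CCR8+ Tregs for 21.

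Transcripts of other cell types moved with CCR8 in part. None of the 9 lists of other cell types had a member called. In heart the B cell marker mean was 0.98 ± 0.70 for CCR8+ and 0.43 ± 0.46 for CCR8- libraries, and in MLN 3.06 ± 1.04 for CCR8+ against 1.46 ± 0.90 for CCR8- libraries (SD, n = 4). The dendritic cell marker mean was 2.57 ± 1.14 for CCR8+ and 1.94 ± 0.34 for CCR8- libraries of the heart, and 2.98 ± 0.47 for CCR8+ against 1.41 ± 1.16 for CCR8- libraries of the MLN. All 4 tested members of the first list and all 5 of the second had an average above 0, with medians of 1.42 and 2.30. Most of the second list's signal lay in the MHC class II genes: Cd74 averaged 8.52 in CCR8+ and 7.35 in CCR8- cells of the heart, and 8.84 in CCR8+ and 6.21 in CCR8- cells of the MLN. Of the defining dendritic cell markers, Clec9a was listed at 0 in all 16 libraries and the group means of Itgax were 0.16 or less. Those of Siglech were at most 0.41. For Xcr1 the heart means were 1.21 (CCR8+) and 0.54 (CCR8-), and the MLN means 0.56 (CCR8+) and 0.6 (CCR8-). Flt3 reached 0.58 in MLN CCR8+ cells, with 0 for MLN CCR8-, and its heart means were 0.08 (CCR8+) and 0.01 (CCR8-). Cd209a was lower with CCR8 in heart, 0.28 (CCR8+) beside 0.71 (CCR8-), and 0 in both MLN groups. With the mean of both lists as a covariate, a setting added after seeing the data, 120 genes of the same sign passed (62 higher, 58 lower), and 105 of them were among the 322. The covariate itself tended to be higher in CCR8+ libraries. A call lost with it therefore need not mean a smaller difference. In the heart the fibroblast marker mean was 2.67 ± 1.40 for CCR8+ and 3.95 ± 0.78 for CCR8- libraries, and the macrophage marker mean 3.36 ± 2.46 for CCR8+ and 3.43 ± 0.65 for CCR8- libraries. Endothelial markers reached 5.81 in heart CCR8- replicate 3, and heart CCR8+ replicate 1 had the least fibroblast and macrophage signal of its group (0.66 and 0.40). Without both of these libraries 232 genes of the same sign passed, 198 of them among the 322. The part of these cells in single genes was not tested.

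Ccr8 followed the sort in each tissue. In heart its level was 9.76, 9.75, 10.21 and 10.32 in CCR8+ libraries, against 8.56, 8.20, 8.73 and 8.32 in CCR8- libraries. In MLN it was 7.39, 8.18, 7.48 and 8.06 in CCR8+ libraries, against 4.33, 4.80, 5.41 and 3.85 in CCR8- libraries. The groups did not overlap within a tissue, although every heart CCR8- library was above every MLN CCR8+ library. The average difference was 2.37 ± 0.20 (5.16-fold, adjusted p = 3.82e-06), made of 1.55 in heart and 3.18 in MLN. Since the cells were sorted on this receptor, its mRNA checks the labels.

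Il2ra and 3 TNF receptor genes of activated Tregs rose with CCR8 on the average, with positive differences in each tissue. The Treg identity list had 5 of 14 members called higher and 0 lower, beside 1.81% higher and 1.48% lower of all tested genes. Its median was 0.89, beside -0.01 over all tested genes. Its heart and MLN medians were -0.16 and 1.44, so the list as a whole was higher on average through the MLN. Of its 5 called members, Il2ra, Tnfrsf4, Tnfrsf18 and Capg were positive in each tissue, and Izumo1r was -0.01 in heart and 2.34 in MLN. Il2ra (chromosome 2, 11642807 to 11693193) encodes the alpha chain of the interleukin 2 receptor, CD25. Its level was 6.77, 6.90, 6.85 and 6.02 in heart CCR8+ libraries, against 5.21, 5.23, 3.59 and 4.07 in heart CCR8- libraries. It was 6.90, 6.80, 6.83 and 6.33 in MLN CCR8+ libraries, against 3.06, 2.21, 4.81 and 4.28 in MLN CCR8- libraries. The CCR8+ libraries of both tissues lay within 6.02 to 6.90, above every CCR8- library of either tissue. The average difference was 2.62 ± 0.35 (6.14-fold, adjusted p = 0.000325).

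The TNF receptor family gave the same picture with smaller differences. Tnfrsf4, which encodes the costimulatory receptor OX40, had levels of 11.49, 11.19, 11.67 and 11.51 in heart CCR8+ libraries and 10.69, 10.28, 10.27 and 11.03 in heart CCR8- libraries. In MLN it had 10.02, 10.50, 10.22 and 10.69 in CCR8+ libraries and 9.09, 9.44, 8.49 and 9.26 in CCR8- libraries. Neither tissue showed an overlap, and the difference averaged 1.09 ± 0.15 (adjusted p = 0.000325). Tnfrsf9, which encodes 4-1BB, differed by 1.82 ± 0.24 (3.54-fold, adjusted p = 0.000332), with 1.23 in heart and 2.42 in MLN, again without overlap. Tnfrsf18, which encodes GITR, averaged 10.95 ± 0.05 in CCR8+ and 10.32 ± 0.43 in CCR8- libraries of the heart, and 10.30 ± 0.24 in CCR8+ and 9.26 ± 0.20 in CCR8- libraries of the MLN (SD, n = 4), and differed by 0.83 ± 0.13 (adjusted p = 0.00112). Cd83, a surface protein of activated lymphocytes and dendritic cells, differed by 1.55 ± 0.27 (adjusted p = 0.00309), and Cd81, a tetraspanin that B cells carry too, by 1.63 ± 0.37 (adjusted p = 0.0179). With the B cell and dendritic cell covariate the adjusted p became 0.0718 for Cd83 and 0.12 for Cd81, while Il2ra, Tnfrsf4, Tnfrsf9 and Tnfrsf18 stayed called (0.00254, 0.00661, 0.00777 and 0.0113).

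By number, and not by share of members, growth genes gave the most calls of any list. In the list of the Myc network and ribosome biogenesis, 17 of 48 members were called higher and 0 lower, with a median of 0.71 (0.53 in heart, 0.91 in MLN), beside 1.81% of all tested genes called higher. This list, like the others, was written with earlier results of these data known. Its share of calls and its mean are therefore not an independent test. Of the 48 members 32 were above 0 in both tissues and 3 below 0 in both. The list mean was 5.15, 4.81, 5.02 and 4.74 in heart CCR8+ libraries, against 4.46, 4.52, 4.12 and 4.21 in heart CCR8- libraries. It was 5.28, 5.23, 5.38 and 5.63 in MLN CCR8+ libraries, against 4.43, 4.66, 4.50 and 4.01 in MLN CCR8- libraries. In neither tissue did the groups overlap. With 1 library left out at a time 14 to 16 members were called, and 10 with the B cell and dendritic cell covariate. The list median was 0.73 with that covariate.

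Myc proteins bind the E-box CACGTG, and that motif was looked up in promoters as a description of the members. RefSeq promoters on GRCm38.p6, from 250 bases before to 50 after the annotated start, held it for 13 of the 41 list members with an entry (31.7%). The share was 16% of the 156 same-sign genes higher with an entry, 12.5% of the 112 lower and 12% of 8338 tested genes. These shares count a gene where any of its promoters held the motif. Counted by single promoter, a unit that cannot be set beside them, the share was 7.15% of all 32851. The motif reads the same on both strands, and the list was written with known Myc targets in it, so its share is not independent of the name. For 4 called members with the motif and for Impdh2, the motif with 12 bases on each side is shown because these genes carry the growth pattern, with the E-box in capitals.
Apex1 (chr14:50924913-50924942, + strand): gcgctccagaacCACGTGggggcggagccc
Nme1 (chr11:93968273-93968302, - strand): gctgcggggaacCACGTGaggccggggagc
Phb (chr11:95666713-95666742, + strand): ttgaggaataggCACGTGcatatattacca
Ran (chr5:129020026-129020055, + strand): gctcggccggccCACGTGacccgccgcccc
Impdh2 (chr9:108560314-108560343, + strand): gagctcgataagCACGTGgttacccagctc
The motif began 24, 18, 232, 118 and 110 bases before the RefSeq start of Apex1, Nme1, Phb, Ran and Impdh2. The GENCODE gene of Impdh2 starts 150 bases further upstream and that of Nme1 249, so by that annotation the motif lies 40 and 231 bases inside these genes. The Apex1 promoter held 3 such motifs, of which the first is shown.

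These 5 genes were all called higher. Nme1, a nucleoside diphosphate kinase, had levels of 9.02, 8.78, 8.92 and 8.54 in heart CCR8+ libraries and 7.79, 7.72, 8.05 and 7.73 in heart CCR8- libraries. In MLN it had 9.07, 8.92, 8.95 and 9.02 in CCR8+ libraries and 8.22, 8.23, 8.64 and 8.38 in CCR8- libraries. All 8 CCR8+ libraries were above the CCR8- libraries of their tissue, and the difference averaged 0.81 ± 0.11 (adjusted p = 0.000501). Ran, the GTPase of nuclear transport, averaged 8.21 ± 0.22 in CCR8+ and 7.36 ± 0.10 in CCR8- libraries of the heart, and 8.47 ± 0.18 in CCR8+ and 7.55 ± 0.37 in CCR8- libraries of the MLN (difference 0.89 ± 0.14, adjusted p = 0.00144). Phb, which encodes the mitochondrial scaffold protein prohibitin, differed by 1.19 ± 0.19 (adjusted p = 0.0019), and Apex1, a DNA repair endonuclease, by 1.22 ± 0.26 (adjusted p = 0.0136, and 0.0711 with the B cell and dendritic cell covariate). Apex1 overlapped in MLN, where the CCR8- replicate 1 had 7.05 and the lowest CCR8+ library 6.81. Impdh2, the rate-limiting enzyme of guanine nucleotide synthesis, rose by 1.23 ± 0.21 (adjusted p = 0.00309), with 0.42 in heart and 2.04 in MLN. Its heart groups overlapped (5.71 to 6.46 in CCR8+, 5.23 to 6.16 in CCR8- libraries).

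Srm (chromosome 4, 148591503 to 148594993), which encodes the polyamine enzyme spermidine synthase, ranked first by the smaller of its 2 tissue differences among the genes without overlap that were called higher. Its level was 5.51, 4.08, 5.04 and 4.57 in heart CCR8+ libraries, against 0.23, 2.65, 0.01 and 3.16 in heart CCR8- libraries. In MLN CCR8+ libraries it was 5.49, 6.14, 6.13 and 7.24, against 3.79, 0.25, 3.86 and 0.00 in MLN CCR8- libraries. All 8 CCR8+ libraries were above all 8 CCR8- libraries, of which 4 were at 0.25 or below. The difference was 3.78 ± 0.62 (adjusted p = 0.00189), and its size rests in part on libraries listed near 0. Bmyc (chromosome 2, 25706739 to 25707721), a Myc paralogue of rodents that lacks the DNA-binding part, had 8.17, 7.70, 8.34 and 8.24 in heart CCR8+ and 6.82, 6.86, 5.88 and 3.89 in heart CCR8- libraries. It had 9.34, 9.33, 9.33 and 9.80 in MLN CCR8+ and 5.88, 5.67, 7.06 and 6.29 in MLN CCR8- libraries. It was called in each tissue alone as well, with differences of 2.25 in heart (adjusted p = 0.0417) and 3.22 in MLN (adjusted p = 0.000735), and on average differed by 2.74 ± 0.33 (6.66-fold, adjusted p = 0.000188).

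Myc itself did not share that pattern. Its level was 5.52, 2.86, 5.23 and 5.44 in heart CCR8+ libraries, against 4.72, 5.03, 4.42 and 4.58 in heart CCR8- libraries. It was 7.39, 7.48, 7.15 and 8.29 in MLN CCR8+ libraries, against 2.94, 2.26, 5.21 and 2.96 in MLN CCR8- libraries. The average of 2.16 ± 0.42 (adjusted p = 0.00657) is nearly all MLN (4.24), with 0.08 in heart, and the tissues differed in limma (difference of the differences -4.16, adjusted p = 0.0283). The heart value leans on 1 library, since replicate 2 of the CCR8+ group was far below the other 3. Ribosome factors were among the other called members. Nhp2 and Dkc1, components of the box H/ACA particles that modify ribosomal RNA, rose by 1.40 ± 0.19 (adjusted p = 0.000325) and 1.63 ± 0.31 (adjusted p = 0.00612). Dkc1 was not called with the B cell and dendritic cell covariate (adjusted p = 0.0626). Nop16, a nucleolar protein, averaged 5.98 ± 0.35 in CCR8+ and 3.92 ± 0.86 in CCR8- libraries of the heart, and 5.98 ± 0.23 in CCR8+ and 4.81 ± 0.48 in CCR8- libraries of the MLN (SD, n = 4), a difference of 1.61 ± 0.28 (adjusted p = 0.00309). Npm1, nucleophosmin, rose by 0.65 ± 0.11 (adjusted p = 0.0019). Wdr74, a ribosome assembly factor, was called at 2.01 ± 0.52 (adjusted p = 0.038) but kept its call in only 4 of 16 fits that left out 1 library.

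**Figure D2:**
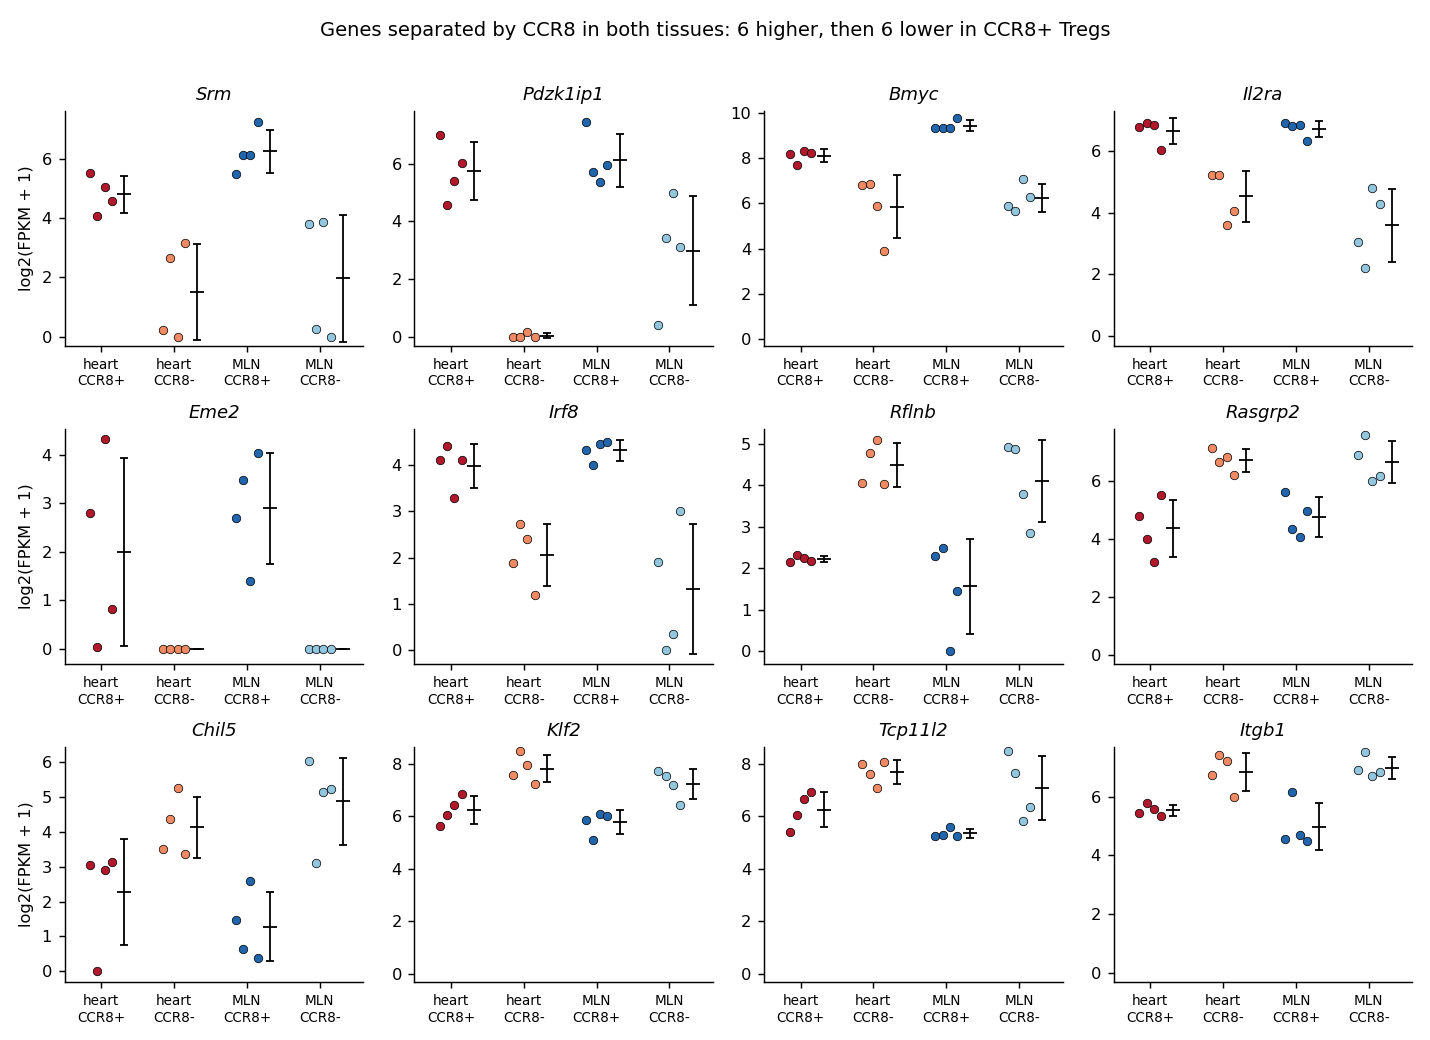
The y axes give log2(FPKM + 1) for 12 genes whose CCR8+ and CCR8- libraries do not overlap in either tissue, the 6 highest and then the 6 lowest by the smaller of the 2 tissue differences. Points are single libraries, the heart pair left of the MLN pair and CCR8+ left of CCR8- in each, and bars are the mean ± SD (n = 4). Bmyc, Il2ra and Irf8 are tightly grouped in CCR8+ libraries, while Pdzk1ip1 and Eme2 are at or near 0 in heart CCR8- libraries.

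Other biosynthetic lists leaned the same way with fewer calls, beside 1.81% called higher of all tested genes. In nucleotide synthesis 5 of 26 members were called higher and 0 lower (median 0.72), among them Shmt1 and Shmt2, which pass 1-carbon units from serine, and Rrm2, a ribonucleotide reductase subunit (2.35 ± 0.56, 2.24 ± 0.59 and 1.84 ± 0.47). With 1 library left out 1 to 6 members were called, 1 without the filter, and 2 with the B cell and dendritic cell covariate (list median 0.73). The list's mean level was 4.15, 3.56, 4.12 and 3.99 in heart CCR8+ libraries, against 3.32, 3.25, 2.60 and 3.20 in heart CCR8- libraries. It was 4.34, 4.31, 3.91 and 4.69 in MLN CCR8+ libraries, against 3.28, 3.61, 3.69 and 3.48 in MLN CCR8- libraries. Neither tissue showed an overlap in this mean. Of its called members, Impdh2 alone kept its call in all 16 such fits. In the cell cycle list 7 of 26 were called higher and 0 lower (median 0.83), with 3 to 8 when 1 library was left out, 4 with no filter and 3 without a variance trend. Tuba1b, an alpha tubulin, averaged 1.20 ± 0.20 higher (adjusted p = 0.00199), Cdk4, a kinase of early cell cycle progression, 0.75 ± 0.14 (adjusted p = 0.0045), and Mcm6, a subunit of the replication helicase, 1.17 ± 0.28 (adjusted p = 0.0243, kept in 12 of the 16 fits without 1 library). Gins2, another replication factor, had a difference of 3.23 ± 0.82 (adjusted p = 0.0354). Its level was 5.69, 4.56, 4.95 and 2.68 in heart CCR8+ libraries against 0.00, 0.00, 0.01 and 4.97 in heart CCR8- libraries, which overlap, and 5 of 16 fits without 1 library kept the call.

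**Figure D3:**
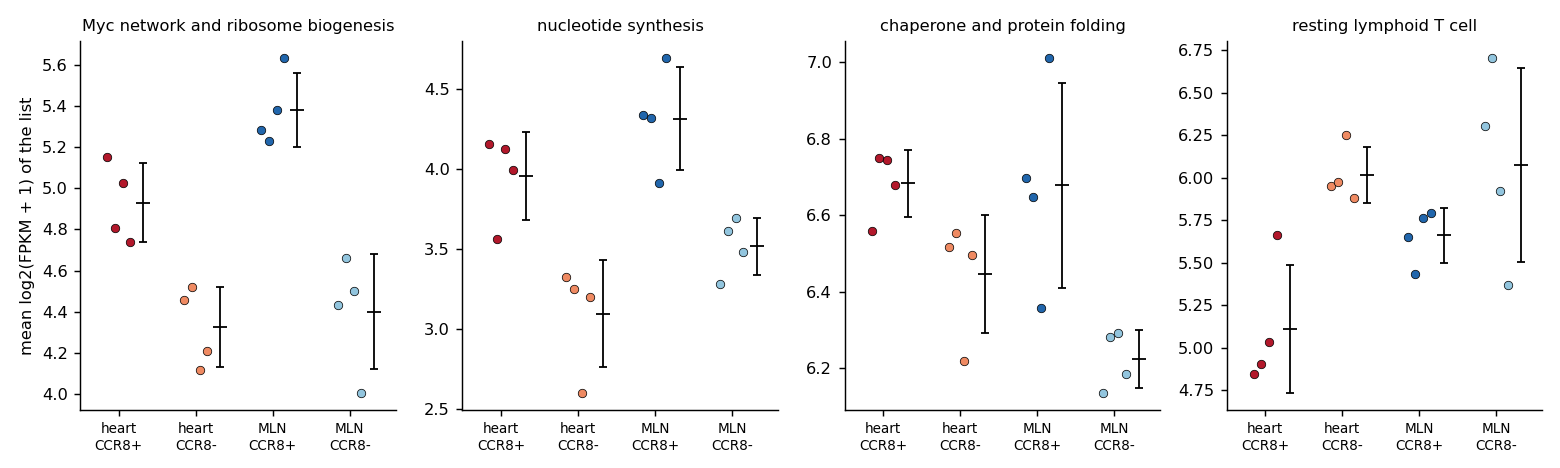
Each point is the mean log2(FPKM + 1) of a gene list in 1 library, on a y axis that does not start at 0, with the mean ± SD of each group of 4 beside it. The heart pair of groups stands left of the MLN pair, with CCR8+ left of CCR8- in each. In the Myc network and nucleotide synthesis panels the CCR8+ libraries lie above the CCR8- libraries of their tissue, and in the resting lymphoid panel heart CCR8+ libraries lie below heart CCR8- libraries while the MLN groups overlap.

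A minority of the protein synthesis and folding genes passed the test, beside 1.81% called higher of all tested genes. Of 79 cytosolic ribosomal protein genes 13 were called higher and 0 lower (median 0.14, with 0.00 in heart and 0.28 in MLN). This count turns on the scaling: it was 21 with median-of-ratios factors and 8 with each library centred on its median. It was 8 to 14 without 1 library, 1 without a variance trend in the limma fit and 6 with the B cell and dendritic cell covariate. The list median was 0.145 with that covariate. Rps2, a protein of the small subunit, had 11.41, 11.27, 11.51 and 11.73 in heart CCR8+ libraries, against 10.84, 11.16, 10.92 and 11.21 in heart CCR8- libraries. In MLN it had 12.08, 12.15, 11.79 and 12.24 in CCR8+ libraries, against 10.94, 11.07, 10.86 and 10.78 in CCR8- libraries. The heart groups lay just apart and the MLN groups by more, for a difference of 0.80 ± 0.09 (adjusted p = 8e-05). Rpl13 differed by 0.40 ± 0.05 (1.32-fold, adjusted p = 0.000196), also without overlap.

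Chaperones had 6 of 32 called higher and 0 lower (median 0.43). They included 5 subunits of the chaperonin TRiC, which folds actin and tubulin, with differences from 0.59 (Cct8) to 0.88 (Cct7), and Hspe1, the mitochondrial co-chaperonin, at 0.74 ± 0.17. None of the 6 was called with the B cell and dendritic cell covariate (list median 0.36), and none without a variance trend. Without the 2 heart libraries named above 3 of 32 were called. Translation factors had 4 of 36 called higher and 1 lower, with Eif5a at 0.59 ± 0.10 (adjusted p = 0.00189) and Eif3d at 1.13 ± 0.25 (adjusted p = 0.0162, and 0.152 with that covariate). The exception was Tpt1, translationally controlled tumour protein, at -0.45 ± 0.11. Mitochondrial ribosomal proteins had 2 of 78 called higher, Mrpl12 (1.40 ± 0.30, adjusted p = 0.0118) and Mrps18b (1.22 ± 0.32, adjusted p = 0.0405), and neither with the B cell and dendritic cell covariate (adjusted p = 0.071 and 0.185). Mrps18b kept its call in 6 of the 16 fits without 1 library. Oxidative phosphorylation had 2 of 79 higher and 1 lower. In the proteasome list 2 of 46 were called higher. They were the immunoproteasome subunit Psmb8 (0.73 ± 0.11, adjusted p = 0.00107) and the activator subunit Psme1 (0.61 ± 0.13, adjusted p = 0.0151, and 0.0595 with that covariate). Psme1 also lost its call without a variance trend and without the 2 heart libraries. Shares of calls near 1.81% are the background of the whole table, and the proteasome, mitochondrial ribosome and oxidative phosphorylation lists were close to it.

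Glycolysis and hypoxia genes split, beside 1.81% called higher and 1.48% lower of all tested genes. Called higher were 5 of 23, among them the glycolytic enzymes Tpi1 (1.10 ± 0.25, adjusted p = 0.018), Eno1 (0.74 ± 0.18, adjusted p = 0.0261) and Gapdh (0.55 ± 0.12, adjusted p = 0.0173), with a list median of 0.50. From 2 to 5 were called when 1 library was left out, and 1 with no filter. In limma 0 were called higher with the B cell and dendritic cell covariate (list median 0.47) or without a variance trend. Called lower was Hif1a, the oxygen-regulated transcription factor, at -0.93 ± 0.18 (adjusted p = 0.00555). Hif1a had 7.28, 7.24, 7.23 and 7.58 in heart CCR8+ libraries against 7.89, 7.71, 7.56 and 7.75 in heart CCR8- libraries, with 1 overlapping pair. In MLN CCR8+ libraries it had 4.99, 5.38, 5.30 and 5.20, against 7.12, 7.15, 6.08 and 6.37 in MLN CCR8- libraries, without overlap.

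**Figure D4:**
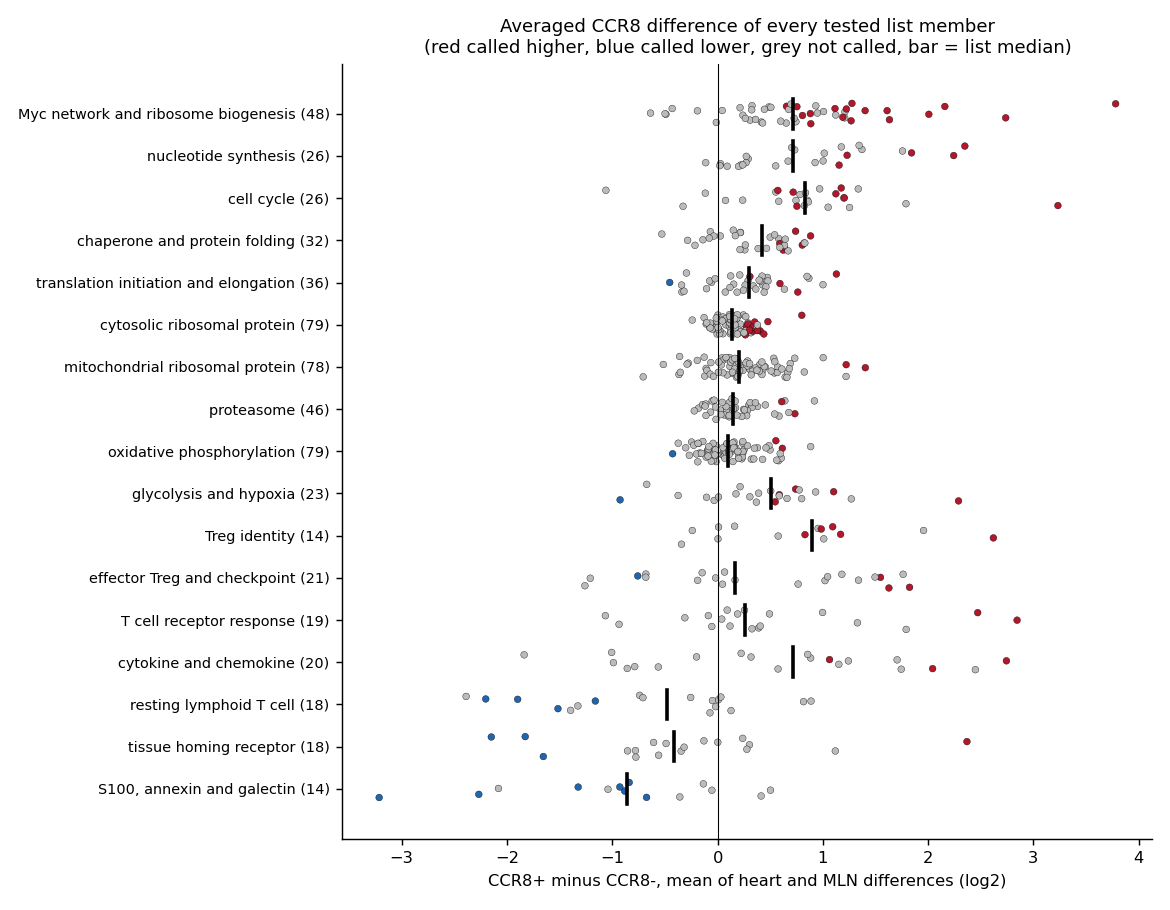
Every tested member of 17 gene lists is a point at its averaged difference (CCR8+ minus CCR8-, log2) on the x axis, red where called higher, blue where called lower and grey otherwise. The black bar is the list median and the number beside a name is the number of tested members. The called members of the Myc network, nucleotide synthesis and cell cycle lists are all red, and those of the resting lymphoid and S100 lists all blue.

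Among cytokines and signalling genes, 3 of 20 and 2 of 19 members were called higher and 0 lower, beside 1.81% higher of all tested genes. Mif, macrophage migration inhibitory factor (chromosome 10, 75859353 to 75860240), an inflammatory cytokine, was called in each tissue by itself. Its level was 10.82, 10.97, 11.16 and 10.66 in heart CCR8+ libraries, against 9.46, 9.90, 9.66 and 9.74 in heart CCR8- libraries. It was 10.76, 10.88, 10.67 and 10.75 in MLN CCR8+ libraries, against 9.25, 9.62, 10.28 and 10.27 in MLN CCR8- libraries. Every CCR8+ library was above every CCR8- library of either tissue, and the difference was 1.06 ± 0.13 (adjusted p = 0.000196; heart 0.0088, MLN 0.00905). Ccl1, a ligand of CCR8, passed at 2.74 ± 0.70 (adjusted p = 0.0353), and kept its call in 7 of the 16 fits without 1 library. It was not called with the B cell and dendritic cell covariate (adjusted p = 0.156), without the 2 heart libraries (0.103) or with no filter (0.118). That average rests on heart, where CCR8+ libraries had 5.22, 5.41, 4.63 and 1.47 and the 4 CCR8- libraries were listed at 0. In MLN 1 CCR8+ library had 5.22 and the other 7 libraries of the node were listed at 0. Ccl1 thus met the filter (FPKM 1 in at least 4 libraries) only through CCR8+ libraries, so its p-value is not independent support. Lta, which encodes lymphotoxin alpha, rose by 2.04 ± 0.48 (adjusted p = 0.0241), and its call was lost without heart CCR8+ replicate 1 or 3, heart CCR8- replicate 2 or MLN CCR8+ replicate 2 (highest adjusted p = 0.0545). Nor was Lta called with that covariate (adjusted p = 0.11), without the 2 heart libraries (0.0903), with no filter (0.0928) or without a variance trend (0.0651).

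Irf8 and Rgs16 were the called members of the T cell receptor response list. Irf8, an interferon regulatory factor of activated lymphocytes that B cells and dendritic cells also express, had 4.11, 4.42, 3.29 and 4.11 in heart CCR8+ and 1.89, 2.74, 2.40 and 1.19 in heart CCR8- libraries. In MLN it had 4.32, 4.0, 4.46 and 4.51 in CCR8+ and 1.90, 0.00, 0.34 and 3.01 in CCR8- libraries. The 8 CCR8+ libraries were all above the 8 CCR8- libraries. The difference was 2.47 ± 0.43 (adjusted p = 0.00309, and 0.0106 with the B cell and dendritic cell covariate). Rgs16, a brake on signalling by G protein-coupled receptors, rose by 2.84 ± 0.50 (adjusted p = 0.00309), with 2.17 in heart and 3.52 in MLN.

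Some genes without overlap belonged to none of the lists described so far. Pdzk1ip1 (chromosome 4, 115088708 to 115093899) encodes a small membrane protein known from kidney epithelium. It had 6.97, 4.58, 5.40 and 6.03 in heart CCR8+ libraries, and in heart CCR8- libraries 0.18 in replicate 3 and 0.00 in the other three. In MLN the level was 7.45, 5.70, 5.35 and 5.96 in CCR8+ libraries, against 0.42, 3.42, 4.97 and 3.13 in CCR8- libraries. The average difference of 4.42 ± 0.52 (adjusted p = 0.000188) was called in each tissue alone, with 5.70 in heart (adjusted p = 0.00156) and 3.13 in MLN (adjusted p = 0.0199). Eme2, a partner of the DNA repair nuclease Mus81, was listed at 0 in all 8 CCR8- libraries. It stood at 2.80, 0.04, 4.31 and 0.82 in heart CCR8+ and at 2.69, 3.48, 1.40 and 4.03 in MLN CCR8+ libraries (adjusted p = 0.0136), so that heart replicate 2 was barely above 0. Eme2 met the filter (FPKM 1 in at least 4 libraries) only through CCR8+ libraries, so its p-value is not independent support. Wdr24, part of the GATOR2 complex upstream of mTORC1, rose by 1.82 ± 0.43 (adjusted p = 0.0222, and 0.0601 without the 2 heart libraries). Pdcd1lg2, which encodes the PD-1 ligand PD-L2, and Ipo5, a nuclear import receptor, were called at 1.68 ± 0.45 (adjusted p = 0.0439) and 1.37 ± 0.36 (adjusted p = 0.0413) but kept their calls in 3 and 4 of the 16 fits without 1 library.

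Klf2, S1pr1, Tcf7 and Ly6c1, genes of recirculating T cells, fell with CCR8 on the average, while most members of their list did not pass. In the resting lymphoid list 4 of 18 members were called lower and 0 higher, against 1.48% of tested genes lower, with a median of -0.48 (-0.996 in heart, -0.43 in MLN). Of the 18, 10 were below 0 in both tissues and 2 above 0 in both. The count was 2 with no filter on low values, without a variance trend, and with the B cell and dendritic cell covariate. The list median was -0.60 with that covariate. Klf2 (chromosome 8, 72319033 to 72321656) had 5.62, 6.05, 6.45 and 6.85 in heart CCR8+ libraries, against 7.60, 8.47, 7.97 and 7.25 in heart CCR8- libraries. It had 5.88, 5.11, 6.09 and 6.03 in MLN CCR8+ libraries, against 7.75, 7.55, 7.20 and 6.42 in MLN CCR8- libraries. The groups did not overlap, which a rule that picked Klf2 required. The heart and MLN differences were close (-1.58 and -1.45), averaging -1.52 ± 0.24 (0.35-fold, adjusted p = 0.00186).

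S1pr1 (chromosome 3, 115710433 to 115715072) had 6.44, 7.08, 6.95 and 7.70 in heart CCR8+ libraries, against 8.23, 8.23, 8.22 and 8.44 in heart CCR8- libraries. In MLN it had 5.56, 5.61, 4.47 and 6.02 in CCR8+ libraries, against 9.26, 8.88, 7.15 and 6.62 in CCR8- libraries. It too was picked by the rule that asked for separate groups in both tissues. Its difference was -1.90 ± 0.33 (0.268-fold, adjusted p = 0.00309). Tcf7, which encodes the transcription factor TCF-1, fell more in heart (-1.74) than in MLN (-0.59), on average by -1.16 ± 0.26 (adjusted p = 0.0179), a difference between tissues that was not called (adjusted p = 0.38). Ly6c1 passed at -2.20 ± 0.53 (adjusted p = 0.0266). Endothelial cells carry it too, heart CCR8- replicate 3 had 11.11 against 6.74 to 7.42 in the rest of its group, and the call held in 11 of 16 fits without 1 library. It was lost without heart CCR8+ replicate 1, MLN CCR8+ replicate 1 or 2 and MLN CCR8- replicate 1 or 2 (highest adjusted p = 0.0599). Ccr7, the receptor that guides T cells into lymph nodes, did not pass and had positive values (0.82 ± 0.37, adjusted p = 0.262). With the B cell and dendritic cell covariate Klf2 and S1pr1 stayed called (0.0283 and 0.00896), and Tcf7 and Ly6c1 did not (0.166 and 0.0963).

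The Rap1 pathway, which switches integrins to their adhesive state, had 2 of 16 members called lower and 0 higher. Over all tested genes the share called lower was 1.48%. Rasgrp2 (chromosome 19, 6399340 to 6415216) encodes the exchange factor that activates Rap1. Its level was 4.77, 3.99, 3.21 and 5.50 in heart CCR8+ libraries, against 7.14, 6.65, 6.81 and 6.18 in heart CCR8- libraries. It was 5.61, 4.33, 4.06 and 4.95 in MLN CCR8+ libraries, against 6.89, 7.56, 5.98 and 6.18 in MLN CCR8- libraries. All 8 CCR8+ libraries were below all 8 CCR8- libraries, and the difference was -2.12 ± 0.33 (0.23-fold, adjusted p = 0.00144), called in heart (adjusted p = 0.0329) and in MLN (adjusted p = 0.0242). Rap1b, the GTPase itself, fell by 1.05 on the log2 scale (SE 0.16, adjusted p = 0.00144), without overlap in either tissue. The other 14 members did not pass, and the list's median was 0.11. On average 8 of 16 were above 0, with 4 above and 4 below 0 in both tissues.

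Homing and adhesion receptors were called lower in 3 cases of 18 and higher only for Ccr8, beside 1.48% lower and 1.81% higher of all tested genes. Itgb1, the integrin beta 1 chain, had 5.44, 5.78, 5.59 and 5.35 in heart CCR8+ libraries, against 6.72, 7.43, 7.22 and 5.98 in heart CCR8- libraries. In MLN the level was 4.55, 6.16, 4.70 and 4.49 in CCR8+ libraries, against 6.90, 7.52, 6.69 and 6.83 in CCR8- libraries. No library crossed over, which a rule that picked Itgb1 required, and the difference was -1.65 ± 0.26 (0.318-fold, adjusted p = 0.00174). Cxcr3, a chemokine receptor of type 1 T cells, differed by -1.83 ± 0.28 (adjusted p = 0.00126), with -1.52 in heart and -2.13 in MLN; its MLN groups were apart and its heart groups overlapped (4.77 to 6.83 in CCR8+, 6.44 to 7.85 in CCR8- libraries).

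Further genes lower in both tissues ranged over several functions. Rflnb, a filamin-binding actin regulator (chromosome 11, 76019194 to 76027782), had 2.15, 2.31, 2.25 and 2.18 in heart CCR8+ and 4.06, 4.78, 5.10 and 4.02 in heart CCR8- libraries. It had 2.30, 2.50, 0.00 and 1.45 in MLN CCR8+ and 4.92, 4.88, 3.78 and 2.85 in MLN CCR8- libraries. Its values were apart in both tissues, for a difference of -2.41 ± 0.42 (adjusted p = 0.00309). Ramp3, a receptor-activity-modifying protein of calcitonin-family receptors, stayed high in heart, at 8.17, 8.49, 8.14 and 8.12 in CCR8+ and 9.14, 9.68, 8.98 and 9.89 in CCR8- libraries. In MLN CCR8+ cells 3 libraries were listed at 0 and 1 had 2.29, against 8.38, 7.85, 2.51 and 3.83 in MLN CCR8- libraries. Its difference was -3.13 ± 0.65 (adjusted p = 0.0102, and 0.0636 with no filter), mostly from the MLN (-5.07). Tcp11l2 differed by -1.57 ± 0.32 (adjusted p = 0.00968), the zinc finger gene Zbtb8b by -1.46 ± 0.29 (adjusted p = 0.00774) and the chitinase-like Chil5 by -2.73 ± 0.55 (adjusted p = 0.00824, and 0.207 with the B cell and dendritic cell covariate). Klf6 and Btg1, which respond quickly to stimulation and to tissue handling, differed by -1.25 ± 0.26 (adjusted p = 0.00968, and 0.117 with the B cell and dendritic cell covariate) and -0.80 ± 0.13 (adjusted p = 0.00174) without overlap in either tissue. Those were the 2 of 20 members of the immediate early list that passed, beside 1.48% lower of all tested genes. The median of that list was -0.31 (-0.85 in heart, 0.29 in MLN). Kdm7a, a histone demethylase, and Fmo1, a flavin monooxygenase, passed at -1.33 ± 0.34 and -1.39 ± 0.35 (adjusted p = 0.0375 and 0.0337) but in 6 and 3 of the 16 fits without 1 library.

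Not every gene that passed on the average moved with CCR8 in both tissues. For 19 of the 341 the signs differed or a tissue was at 0, and some others of the same sign had a heart difference near 0. The S100, annexin and galectin list is named for calcium- and glycan-binding proteins of motile and tissue T cells. It also holds Crip1, which is of none of these families. The list had 7 of 14 called lower, Crip1 among them, and 0 higher, beside 1.48% lower of all tested genes. Yet its heart median was 0.04 and its MLN median -1.95. Without a variance trend in the limma fit 4 were called lower. S100a4 had 11.83, 12.86, 12.18 and 12.11 in heart CCR8+ libraries, against 12.21, 12.77, 11.31 and 12.28 in heart CCR8- libraries. In MLN it had 8.76, 6.67, 6.15 and 2.59 in CCR8+ libraries, against 12.94, 12.82, 11.49 and 13.01 in CCR8- libraries. Thus the heart groups overlapped throughout and the MLN groups were apart, and the tissues differed by 6.63 (adjusted p = 0.00671). S100a6, S100a10, S100a11 and Lgals1 also differed between tissues (adjusted p = 0.000868, 3.28e-06, 2.18e-05 and 0.000292). Lgmn, the protease legumain, kept its call in 13 of the 16 fits without 1 library and averaged -1.88, with 1.13 in heart and -4.89 in MLN, and Ccr2, a monocyte and T cell chemokine receptor, -2.15, with 0.27 and -4.57. Tff1, a secreted trefoil peptide, was listed at 0 in all 8 MLN libraries and had 4.84, 4.10, 7.98 and 6.28 in heart CCR8+ libraries, with 1.49, 0.00, 0.00 and 0.00 in heart CCR8- libraries. Tff1 thus met the filter (FPKM 1 in at least 4 libraries) through heart libraries alone. Izumo1r, which encodes folate receptor 4 of Tregs, and Ctsw, a cathepsin, were higher in MLN (2.34 and 3.49) with -0.01 and -0.08 in heart.

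Several genes best known from Tregs did not pass on the average. Foxp3 differed by 0.01 ± 0.29 (adjusted p = 0.992, heart -0.46, MLN 0.48) and Batf, a transcription factor of effector Tregs, by 0.07 ± 0.22 (adjusted p = 0.921). Ctla4, the inhibitory receptor, differed by -0.34 ± 0.29 (adjusted p = 0.598) and the suppressive cytokine Il10 by -0.99 ± 0.56 (adjusted p = 0.388). For 3 genes of tissue Tregs the mean hides opposite signs: Areg, the repair factor amphiregulin (1.12 in heart, -3.03 in MLN), Il1rl1, the interleukin 33 receptor chain ST2 (1.5 and -1.98), and the lectin-like receptor Klrg1 (3.86 and -3.89). Their averages were -0.96 ± 0.46, -0.24 ± 0.38 and -0.02 ± 0.84 (adjusted p = 0.296, 0.806 and 0.995). None of the 3 was called in heart by itself (limma adjusted p = 0.552, 0.278 and 0.209). Klrg1 was not called in MLN either (adjusted p = 0.0743). The heart difference of Klrg1 leans on CCR8- replicate 3, at 0.04 beside 5.84, 6.32 and 7.22 in the rest of its group. The heart and MLN differences themselves differed in limma for Il1rl1 (adjusted p = 0.0452) and Klrg1 (adjusted p = 0.0482) and not at the threshold for Areg (adjusted p = 0.0506).

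The other lists gave few calls or calls in both directions. Effector and checkpoint genes had 3 of 21 called higher and 1 lower (median 0.17). The tissue repair list had 3 of 16 higher and 3 lower, beside 1.81% higher and 1.48% lower among all tested genes. Its median was -0.15 on the average, with 1.03 in heart and -0.50 in MLN. Among the tissue repair genes Il1r2 encodes the receptor that traps interleukin 1 without signalling and differed by 1.5 ± 0.32 (adjusted p = 0.0128, and 0.072 with that covariate). Rora, which encodes a retinoid-related orphan receptor, differed by -1.70 ± 0.38 (adjusted p = 0.0169), of which -3.27 was in MLN and -0.13 in heart. Capg, an actin-capping protein of the Treg identity list, rose by 0.98 ± 0.19 (adjusted p = 0.00692, and 0.1 with the B cell and dendritic cell covariate). The interferon response had 1 of 21 called lower, Ifi27l2a, and MHC class I presentation 1 of 11 higher, H2-T23. The NF-kB pathway (17 genes) and lipid and cholesterol (19 genes) lists had 0 called in limma.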

How the data were processed

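RNA-seq was read from 16 libraries of about 100 sorted Tregs each, prepared with a NEBNext Ultra kit per the labels' protocols. Reads were processed with HISAT2 2.0.5 and featureCounts 1.5.0-p3 on mm10 (GRCm38), per the submitters' processing notes. The deposited values are named FPKM in the file header, and their range is that of a log2 scale. The libraries share nearly 1 distribution: the maximum was 14.899 in each, and values sorted within libraries lay within 0.063 of their mean over libraries. No source used here names that step. Unlogged, a library summed to between 1007908 and 1007934, so whether the authors' values are FPKM or a rescaled form is not settled. Depth is unknown.

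Of 19219 rows, 24 named as dates were left out. Tested genes reached FPKM 1 in no fewer than 4 libraries. limma 3.58.1 in R 4.3.3 fitted 4 group means to log2(FPKM + 1) with a variance trend (12 residual and 7.01 prior degrees of freedom). The averaged contrast, each tissue's contrast and their difference were tested with Benjamini-Hochberg adjustment. The script was tested on simulated data. Named genes were 12 fixed Treg genes, the 12 genes in each direction without overlap that had the largest smaller tissue difference, up to 4 called members of each list by size, and 4 in each direction that were called but differed between tissues. Not every gene picked by this rule is reported here. Other list members named were chosen after their values were seen. The members and lists were chosen with earlier results of these data known. Gene coordinates come from the annotation of GRCm38, and promoters from RefSeq on GRCm38.p6. Alternatives covered the pseudocount, filter, scaling, variance model, replicate number and single libraries. Fits without 2 heart libraries and with marker covariates were added after seeing the data.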

Additional observations from a re-analysis of the deposited data

Results flagged for a closer look

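Of 368 groups of 4 libraries looked at, 1 for each named gene and group, 33 held a library that stood apart from the other three (a gap, as a share of the whole range, above Dixon's critical value for 4 samples). Chance flags about 1 in 20 groups of normally distributed values. Where the other libraries of a group are at 0, any value above 0 is flagged, and a group of equal values cannot be. The 33 can therefore not be set against that rate. All values are levels in log2(FPKM + 1). In heart CCR8+ replicate 2 the levels set apart were 0.00 for Chil5, 8.49 for Ramp3, 8.78 for Cd83, 2.86 for Myc and 9.70 for Eif5a. In heart CCR8+ replicate 4 the levels set apart were 6.02 for Il2ra, 10.78 for Ctla4 and 7.58 for Hif1a. In heart CCR8- replicate 1 the levels set apart were 9.10 for Il10 and 1.49 for Tff1. In heart CCR8- replicate 3 the levels set apart were 7.55 for Batf, 7.14 for Tnfrsf9, 0.18 for Pdzk1ip1, 11.11 for Ly6c1 and 3.33 for Galk1. In heart CCR8- replicate 4 the levels set apart were 8.44 for S1pr1, 0.79 for Shmt1 and 4.97 for Gins2. In MLN CCR8+ replicate 1 the level set apart was 13.27 for Rpl13. In MLN CCR8+ replicate 2 the level set apart was 6.16 for Itgb1. In MLN CCR8+ replicate 3 the levels set apart were 5.59 for Tcp11l2, 8.81 for Capg, 1.17 for Calca and 5.22 for Ccl1. In MLN CCR8+ replicate 4 the levels set apart were 9.80 for Bmyc, 2.29 for Ramp3 and 0.13 for Lgmn. In MLN CCR8- replicate 1 the level set apart was 5.72 for Foxp3. In MLN CCR8- replicate 2 the level set apart was 1.76 for Shmt1. In MLN CCR8- replicate 3 the levels set apart were 0.34 for Calca, 10.12 for Atp5md, 6.45 for Klf6 and 11.49 for S100a4.

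For 13 named genes the CCR8 difference was itself different between the tissues in limma. The heart difference minus the MLN difference (log2) was 3.48 for Il1rl1, 7.75 for Klrg1, 1.98 for Tigit, 5.42 for Tff1, 6.02 for Lgmn, 4.83 for Ccr2, 1.21 for Ifi27l2a, 6.62 for S100a4, 4.53 for S100a6 and 2.77 for S100a11. It was -2.35 for Izumo1r, -4.16 for Myc and -3.57 for Ctsw, whose differences were larger in MLN.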

How the results depend on the processing

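The main count was 341 genes, 322 of them with the same sign in both tissues. It was 222 and 210 with no filter on low values, 191 and 178 without a variance trend, and 126 and 120 with the covariate of B cell and dendritic cell markers, which was chosen after seeing the data. Leaving out 1 library at a time gave 233 to 364 genes, and 222 to 347 with the same sign. The remaining settings stayed within 1.5 times of both counts, and the test on the larger tissue p called 0 genes in every setting run. Deviations of same-numbered libraries from their group means correlated between -0.0933 and 0.0589. Libraries of unlike numbers were not compared, so these values cannot tell whether same-numbered libraries shared donor animals. With the replicate block, 285 genes were called, 269 of them with the same sign, and 259 of these were shared with the 322.

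Of 92 named genes 84 were called, 56 of them whichever library was left out and 34 in every setting tried. The genes that changed sign were 3 that did not pass. Foxp3 was -0.005 with each library centred on its median and -0.137 to 0.178 without 1 library. Klrg1 was 0.075 with median-of-ratios factors and -0.821 to 0.375 without 1 library. Batf was -0.062 with the covariate of fibroblast, macrophage and endothelial markers, -0.12 without 2 heart libraries and -0.085 to 0.164 without 1 library. The cause was not tested for any of these. Read depth is unknown, so genes with low values cannot be told from undetected ones.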
